A study of Mus musculus with 8 samples.

Results

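The miR-183, miR-96 and miR-182 cluster is a group of 3 microRNA (miRNA) hairpins that are cut from 1 primary transcript on mouse chromosome 6. Its members here were mmu-miR-183-5p, mmu-miR-96-5p and mmu-miR-182-5p, chosen by their names in the probe annotation of the arrays, together with every probe of each. They made up 3 of the 1881 mouse miRNAs on the array and 6 of its 4415 probes. Mature miRNAs were measured in footpad skin, in which eccrine sweat glands form, on 8 single-colour Agilent arrays. The 4 groups, each with 2 arrays, were wild-type (WT) embryos at E16.5 (E for embryonic day), Dicer conditional knockout (cKO) embryos at E16.5, WT embryos at E17.5 and Dicer cKO embryos at E17.5, all on the strain background C57BL6. Each array carried the RNA of a pool of footpads from 3 to 5 embryos. The labels do not name the Cre driver or the cells in which Dicer was deleted, and give no more of the WT genotype than its name.

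Dicer is the endonuclease that cuts the precursor hairpin to release the mature miRNA. The miR-183 cluster is known above all from sensory cells, such as hair cells of the inner ear and photoreceptors, and it is also expressed in surface epithelia. In hair cells and in the retina the cluster is needed for normal maturation, and changes in the seed of miR-96 cause hearing loss in mice and in people. The seed, bases 2 to 8 from the 5′ end of a miRNA, makes the main contact with target mRNAs.

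The 3 mature sequences are shown first because their seeds are close but not equal. They are printed 5′ to 3′ with the seed in capitals, from RefSeq on GRCm38.p6, and all lie on the minus strand of chromosome 6, at chr6:30169711-30169732 for miR-183-5p, chr6:30169506-30169528 for miR-96-5p and chr6:30165962-30165986 for miR-182-5p.
mmu-miR-183-5p: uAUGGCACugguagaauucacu
mmu-miR-96-5p: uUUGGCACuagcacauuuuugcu
mmu-miR-182-5p: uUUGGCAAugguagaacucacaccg
Bases 3 to 7 read UGGCA in all 3. Counted from the 5′ end, the seed of miR-182-5p differs from that of miR-96-5p by C8A, the seed of miR-183-5p differs from that of miR-96-5p by U2A, and that of miR-183-5p differs from that of miR-182-5p by U2A and A8C. Over the whole sequence, seed included and aligned from the 5′ end, miR-182-5p and miR-183-5p had the same base at 18 of 22 positions, miR-96-5p and miR-183-5p at 13 of 22, and miR-96-5p and miR-182-5p at 12 of 23. Bases 2 to 7 were identical between miR-96-5p and miR-182-5p. No miRNA of the array outside the cluster had the same bases 2 to 7 as a member, among the 1608 of 1881 names that matched a RefSeq mature sequence.

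In the RefSeq annotation the 3 hairpins span 3820 bases and overlap the long noncoding RNA gene Mirc35hg, between the protein-coding genes Nrf1 and Ube2h. On the transcribed strand Mir183 comes first (chr6:30169668-30169737), Mir96 follows after 116 bases (chr6:30169446-30169551), and Mir182 lies a further 3453 bases on (chr6:30165918-30165992). The files give mm9 positions for the probes. They place the other arm of each hairpin at higher coordinates than the 5p arm, whereas RefSeq places it at lower ones on this minus-strand locus, so positions within a hairpin are given from RefSeq only.

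Every member was read by a pair of probes, and these are shown because the members' values turn on them. Each probe is the complement of the 3′ part of its miRNA, and the longer probe of a pair is the shorter one with 1 base added at its 3′ end, in capitals here.
miR-183-5p, longer probe: agtgaattctaccagtgcC
miR-96-5p, longer probe: agcaaaaatgtgctagtgccaA
miR-182-5p, longer probe: cggtgtgagttctacC
The longer probes pair with bases 4 to 22 of miR-183-5p, 2 to 23 of miR-96-5p and 10 to 25 of miR-182-5p. The seed therefore lies wholly outside the miR-182-5p probe and wholly inside the miR-96-5p probe. The longest run of a probe that could pair with another member was 8 bases, for the miR-183-5p probes with miR-182-5p. With the other mature sequences on the array the longest run was 8 or 9 bases.

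The arrays differed in how many miRNAs they detected. A probe was taken as detected on an array when over 50% of its spots were well above background. At E17.5 between 352 and 384 miRNAs were detected per array. At E16.5 they numbered 365 and 367 on the first array of cKO and WT, and 281 and 279 on the second. No spot was saturated (0 spots on each array). Arrays were scaled to a common 75th percentile, taken over 474 probes that every array detected, and scaled values under −4.24 (log2) were set to that floor. A miRNA was tested where some group had it detected on its 2 arrays, which left 385. All 3 members were among these 385, of which 261 were detected on all 8 arrays. miR-96-5p and miR-182-5p were detected on all 8 arrays, and miR-183-5p on the 4 WT arrays and 0 of the 4 cKO arrays. It entered the test through the WT groups, in which it was high.

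All 3 members were lower in Dicer cKO footpad skin than in WT, at both stages. miR-182-5p was left at 29.5% of its WT level and miR-96-5p at 37.7%, while miR-183-5p fell below detection. Set against the detection limit of the cKO arrays, miR-183-5p was at least 3.07-fold lower by its longer probe and at least 1.93-fold lower by its shorter one. miR-182-5p and miR-96-5p, the 2 members detected in both genotypes, were called lower over both stages by limma with Benjamini-Hochberg adjustment at 0.05. The background was 14.5% of tested miRNAs called lower (56 of 385), 46% called higher (177 of 385) and 60.5% called in either direction. miR-183-5p was called too, but it passed the filter only through WT, where it was high, so its call is not counted beside that share. The share of calls that went up rests on the scaling between arrays: 76.0% of calls were higher as scaled here, and 12% with all probes in the percentile, 9.52% without scaling and 4.60% with scaling on control probes. The median change of all 385 was 0.17 on the log2 scale as scaled here and between −0.15 and 0.11 under 5 other scalings. The falls of miR-182-5p and miR-96-5p passed under all 6 scalings, at −2.15 to −1.76 and −1.80 to −1.41. The fitted values of miR-183-5p, −1.79 to −1.54, passed too, but the floor sets them and they add no support. In RNA from whole skin, fewer cells that hold these miRNAs and less miRNA per cell cannot be told apart.

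miR-182-5p is the last hairpin of the cluster's transcript. Its longer probe read 129 and 81.0 intensity units on the WT arrays at E16.5, 146 and 159 on the WT arrays at E17.5, 27.5 and 28.1 in cKO at E16.5, and 29.3 and 34.8 in cKO at E17.5. After scaling, the same arrays stood at log2 values of −1.62 and −1.81 (WT E16.5), −1.78 and −1.71 (WT E17.5), −3.39 and −3.36 (cKO E16.5) and −3.80 and −3.43 (cKO E17.5). All 4 WT arrays lay above all 4 cKO arrays, and the gap was wider than the spread within a genotype, which was 0.085 in WT and 0.21 in cKO (SD, n = 4). The log2 change over both stages was −1.76 ± 0.097 (SE; 95% interval −2.01 to −1.51), a 3.39-fold fall, with an adjusted p of 0.000128 from limma. The change placed miR-182-5p at rank 10 of 385 from the lowest.

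The shorter miR-182-5p probe showed the fall as a loss of detection. It read 26.6 to 51.9 intensity units in WT, where 53 of 55 spots were well above background, and 6.45 to 7.50 in cKO, where 0 of 56 spots were. As no cKO array read it well above background, its fall is a bound only, at least 1.97-fold over both stages. Such a bound sets the WT mean against the mean detection limit of the cKO arrays, that is, each array's dimmest well-above-background probe (or the probe itself, if brighter).

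miR-96-5p is the middle hairpin and the member whose seed changes cause deafness. Its longer probe read 174 and 110 intensity units in WT at E16.5, 198 and 221 in WT at E17.5, 49.4 and 43.4 in cKO at E16.5 and 53.8 and 62.9 in cKO at E17.5. The scaled log2 values were −1.19 and −1.37 (WT E16.5), −1.34 and −1.24 (WT E17.5), −2.54 and −2.73 (cKO E16.5) and −2.92 and −2.58 (cKO E17.5). The genotypes again did not overlap, and the SD was 0.084 in WT and 0.17 in cKO (n = 4 each). The log2 change was −1.41 ± 0.10 (SE; 95% interval −1.67 to −1.15), 2.65-fold lower, with an adjusted limma p of 0.000304 and rank 13 of 385.

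miR-96-5p was the member whose probes both stayed measurable in the cKO. The longer probe had 60 of 60 spots well above background in each genotype, and the shorter one 57 of 57 in WT and 58 of 60 in cKO. The shorter probe read 87.4 to 163 intensity units in WT and 32.5 to 46.5 in cKO. When it stood in for the longer one, the fitted change of miR-96-5p was −1.43, beside −1.41.

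miR-183-5p gives the cluster its name and is its first hairpin. Its longer probe read 65.8 and 45.8 intensity units in WT at E16.5, 71.8 and 75.5 in WT at E17.5, 13.0 and 11.0 in cKO at E16.5 and 14.0 and 15.0 in cKO at E17.5. In WT, 59 of 59 spots were well above background, and in cKO 11 of 58. The scaled log2 values were −2.60 and −2.64 (WT E16.5) and −2.81 and −2.79 (WT E17.5). Before the floor was applied, the cKO arrays stood at −4.47 and −4.72 (E16.5) and −4.87 and −4.65 (E17.5), all below the WT arrays and below the floor.

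With the cKO arrays at the floor, the fall of miR-183-5p has a lower bound and no point estimate. It was at least 3.07-fold over both stages, at least 2.58-fold at E16.5 and at least 3.65-fold at E17.5. The fitted log2 change was −1.54 ± 0.016 (SE) with an adjusted limma p of 7.7e-07, but the spread of the floored arrays was 0 by construction, so this p understates the spread between pools. The shorter probe, at 28.8 to 46.3 intensity units in WT and 6.36 to 8.06 in cKO, had 55 of 57 spots well above background in WT and 0 of 58 in cKO, and gave a bound of at least 1.93-fold. The bounds are looser at E16.5, where the second array of each genotype had the highest detection limit: the lowest signal well above background was −3.57 (cKO) and −3.67 (WT) on these arrays and −5.03 to −4.40 on the other 6, on the scaled log2 scale.

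**Figure D1:**
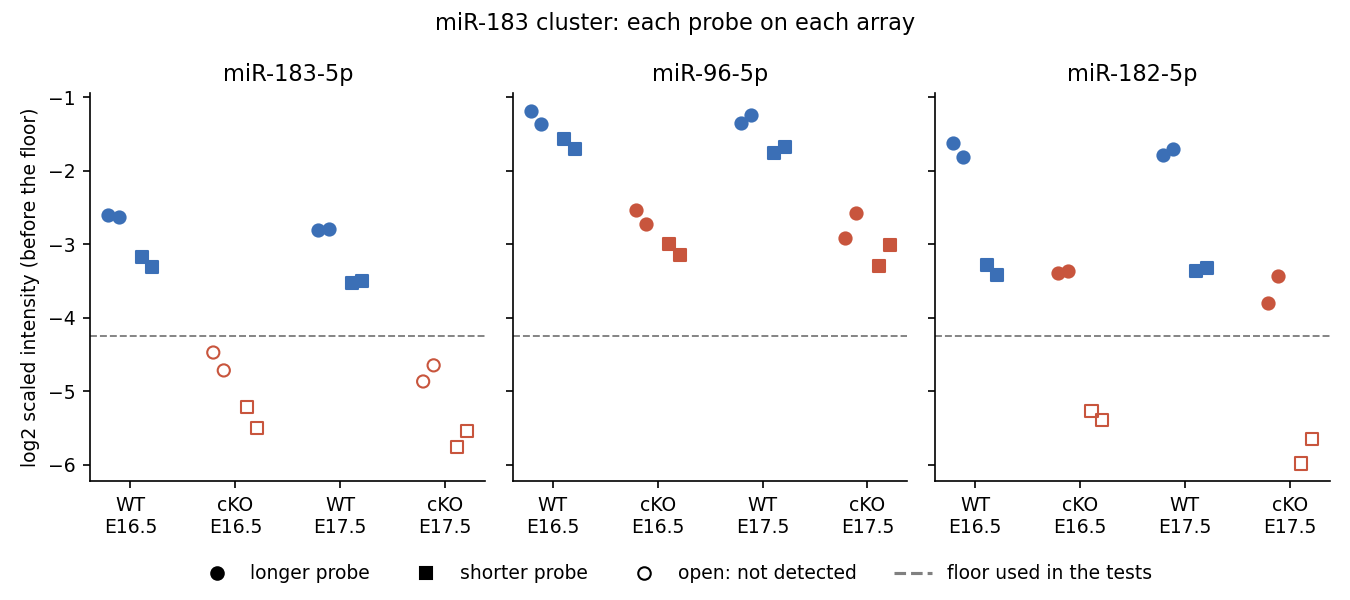
Scaled log2 intensity (vertical axis, before the floor) of each probe of the 3 members on each of the 8 arrays, by group, with WT in blue and Dicer cKO in red, circles for the longer and squares for the shorter probe, open symbols where the probe was not detected and a dashed line at the floor of −4.24. For each of the 6 probes the 4 WT arrays lie above the 4 cKO arrays, and the cKO points of miR-183-5p and of the shorter miR-182-5p probe lie below the floor.

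At E16.5, miR-182-5p and miR-96-5p were called lower, beside a background of 15.1% of tested miRNAs lower, 35.8% higher and 50.9% in either direction. The log2 change of miR-182-5p was −1.66 ± 0.14 (SE) with an adjusted limma p of 0.000774, and that of miR-96-5p was −1.36 ± 0.14 with an adjusted p of 0.00172. At E17.5 both were again called lower, beside 10.1% lower, 36.1% higher and 46.2% in either direction. There the change of miR-182-5p was −1.87 ± 0.14 (adjusted limma p 0.000564) and that of miR-96-5p was −1.46 ± 0.14 (adjusted p 0.00145).

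No member's cKO effect was called different between the stages, beside a background of 1.56% of miRNAs (0.779% with a lower and 0.779% with a higher effect at E17.5). The effect at E17.5 minus that at E16.5 was −0.21 for miR-182-5p (95% interval −0.71 to 0.28, adjusted limma p 0.498) and −0.10 for miR-96-5p (−0.62 to 0.42, adjusted p 0.741). The intervals reach stage differences of −0.71 and −0.62, so equal effects are not shown. For miR-183-5p the cKO arrays were at the floor on both days, so its difference of 0.18 ± 0.033 (adjusted limma p 0.0634) is only the WT change with its sign turned. Its SE and p understate the spread between pools, as the floored arrays add none. That difference was called in 2 of 24 alternatives, and it was 0.16 to 0.20 with arrays left out.

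**Figure D2:**
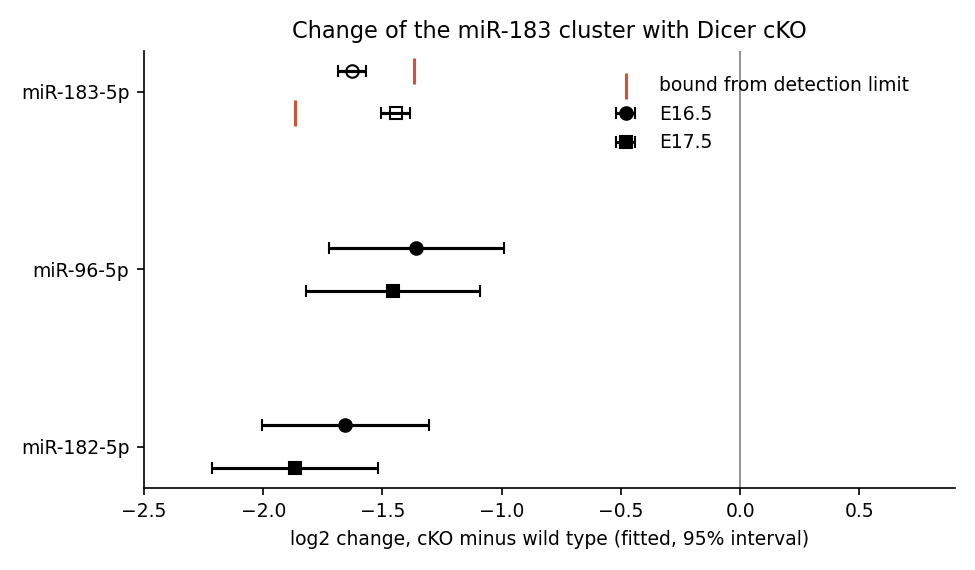
Fitted log2 change, cKO minus WT (horizontal axis), of each member at E16.5 (circles) and E17.5 (squares), with 95% intervals, and, as red ticks, the bound that the detection limit sets for miR-183-5p (open symbols, cKO arrays at the floor). The changes of miR-182-5p and miR-96-5p lie between −1.87 and −1.36, and the intervals of both stages overlap for each of them.

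Between E16.5 and E17.5 in WT skin, miR-182-5p changed by −0.03 (95% interval −0.38 to 0.32, adjusted limma p 0.996) and miR-96-5p by −0.01 (−0.38 to 0.35, adjusted p 1), neither of which passed. miR-183-5p fell by 0.18 on the log2 scale (SE 0.023, 95% interval −0.24 to −0.12, adjusted p 0.0128), so that 1 of 3 members was called, beside 10.6% of miRNAs lower, 4.16% higher and 14.8% in either direction. The fit takes the spread of miR-183-5p partly from the floored cKO arrays, where it was 0 by construction. Its SE, interval and p thus understate the spread between pools, and with only the WT arrays the adjusted limma p was 0.127. The direction of this small fall depended on the scaling: it was −0.06 and −0.07 with quantile and median scaling, and 0.06 to 0.42 under the other 3 scalings. The call was also lost without either WT array at E17.5, at −0.17 (adjusted p 0.0584) without the first and −0.19 (adjusted p 0.0902) without the second.

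In cKO skin, 0 of the 2 detected members were called between the stages by limma, beside 20.3% lower, 15.3% higher and 35.6% in either direction. The unadjusted p was 0.136 for miR-182-5p and 0.464 for miR-96-5p. miR-182-5p stood at −0.24 (95% interval −0.59 to 0.11, adjusted p 0.215) and miR-96-5p at −0.11 (−0.48 to 0.25, adjusted p 0.565). miR-183-5p was at the floor on all 4 cKO arrays, which allows no comparison. With normexp background correction, which adds 50 intensity units to every spot, in place of the scanner's signal, miR-182-5p (−0.31, adjusted limma p 0.0048) and miR-96-5p (−0.22, adjusted p 0.0217) did pass.

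Whether the members fell by unequal amounts was asked within arrays, through the log2 difference between 2 miRNAs on the same array. Scaling by a constant leaves this difference as it is where both miRNAs lie above the floor, but not where 1 of them is at the floor. The difference of miR-182-5p minus miR-96-5p was −0.47 to −0.43 on the WT arrays and −0.88 to −0.63 on the cKO arrays, with no overlap. Its change was −0.35 (two-sided exact permutation test, p = 0.0286, the smallest that 70 arrangements can give; 0.04 adjusted over the 7 pairs tested). The adjusted value depends on the pairs with miR-200c-3p and miR-205-5p among the 7. Those comparators were chosen with earlier results known. By the longer probes the fall was larger for miR-182-5p than for miR-96-5p. This order was not kept with other probes or another background correction: the change was 0.54 with the shorter probes, of which that of miR-182-5p was at the floor in cKO, 0.09 with the mean of all probes and −0.01 with normexp. The offset of 50 intensity units in normexp makes log2 changes of dim probes smaller by construction. With arrangements within stage, whose smallest possible p is 0.0556, the adjusted p was 0.0778. Without any 1 WT array the change was −0.36 to −0.35 with adjusted p from 0.0667 to 0.08.

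Against miR-183-5p the floor limits the reading. The difference of miR-182-5p minus miR-183-5p changed by −0.23 (exact permutation p = 0.0857, adjusted 0.1), with overlapping genotypes, and that of miR-96-5p minus miR-183-5p by 0.13 (p = 0.257, adjusted 0.257). With other scalings, which move the floor, the first of these was called, at −0.43 to −0.36 with all-probe, control-probe and no scaling. With the floor divided by 4 on the linear scale, the latter was 0.56 with an adjusted p of 0.0333, since the floored cKO values of miR-183-5p then moved down.

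miR-182-5p and miR-96-5p fell less than miR-200c-3p and miR-205-5p, the epithelial miRNAs with which they were set side by side. miR-183-5p, which has only a bound, was not compared. These comparators were chosen with earlier results known, and miR-200c-3p had the deepest fall of the 8 listed skin epithelium miRNAs. Of that list, miR-200b-3p changed by −1.77, beside −1.76 for miR-182-5p, and the median was −3.03. The tests below cover these comparators only. miR-200c-3p, a miRNA of the miR-200 family known for holding cells in the epithelial state, changed by −3.36 ± 0.11 (SE), and miR-205-5p, a miRNA of basal keratinocytes, by −3.12 ± 0.095. The difference of miR-182-5p minus miR-200c-3p rose from −1.16 ± 0.19 in WT to 0.44 ± 0.085 in cKO (SD, n = 4 each), a change of 1.60, and the change against miR-205-5p was 1.35. miR-200c-3p was not detected on the second cKO array at E16.5 and stood at −4.22, near the floor, on the first cKO array at E17.5. Without the first of these arrays the change of miR-182-5p against it was 1.56 and that of miR-96-5p 1.97. For miR-96-5p the changes were 1.95 against miR-200c-3p and 1.71 against miR-205-5p. In each of these 4 pairs the genotypes did not overlap and the exact permutation p was 0.0286, adjusted to 0.04. The adjusted p was 0.05 for each of the 4 without any 1 WT array, 0.117 without both second arrays at E16.5, and 0.0778 with arrangements within stage. The direction was the same under all of the alternatives run, with changes from 0.97 to 2.46.

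**Figure D3:**
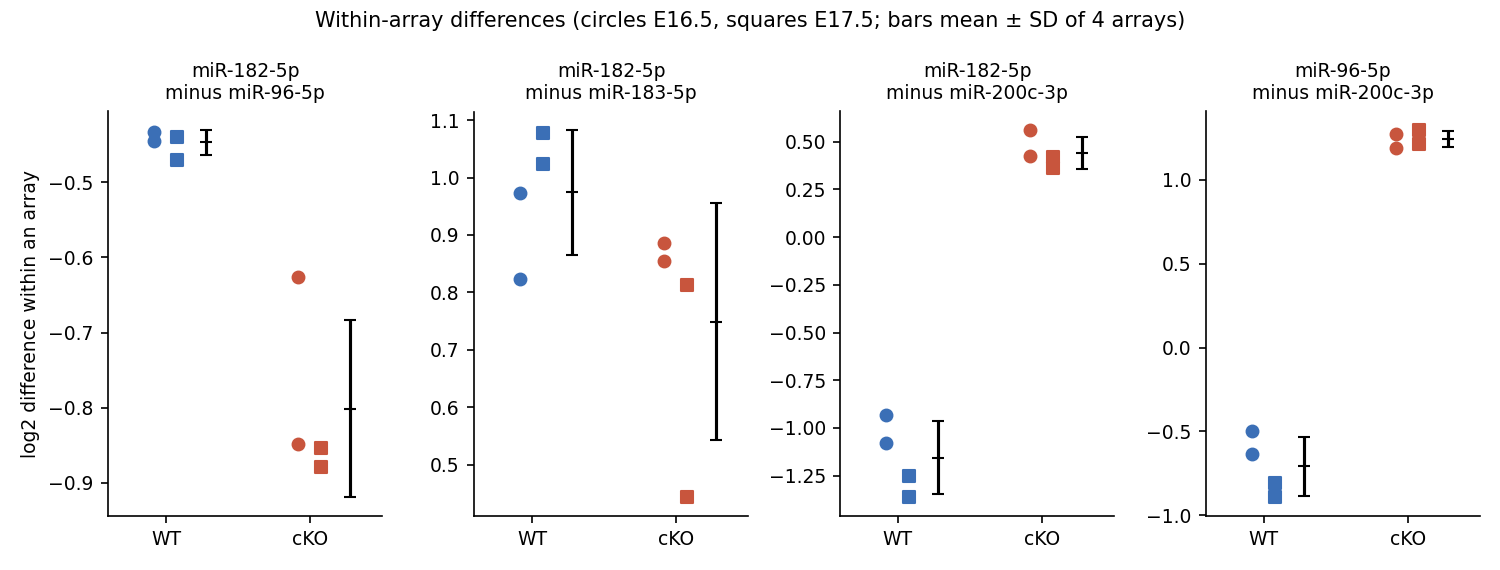
Log2 difference between 2 miRNAs on the same array (vertical axis, its own range in each panel) in WT (blue) and cKO (red), circles for E16.5 and squares for E17.5, with mean ± SD of 4 arrays. The genotypes do not overlap for miR-182-5p minus miR-96-5p or for either member minus miR-200c-3p, where the difference rises, and they overlap for miR-182-5p minus miR-183-5p.

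Among all tested miRNAs miR-182-5p took rank 10 and miR-96-5p rank 13 from the lowest change over both stages, with changes of −1.76 and −1.41 beside a median of 0.17 for all 385. miR-183-5p is drawn at its fitted value, which the floor sets, and has no rank of its own.

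**Figure D4:**
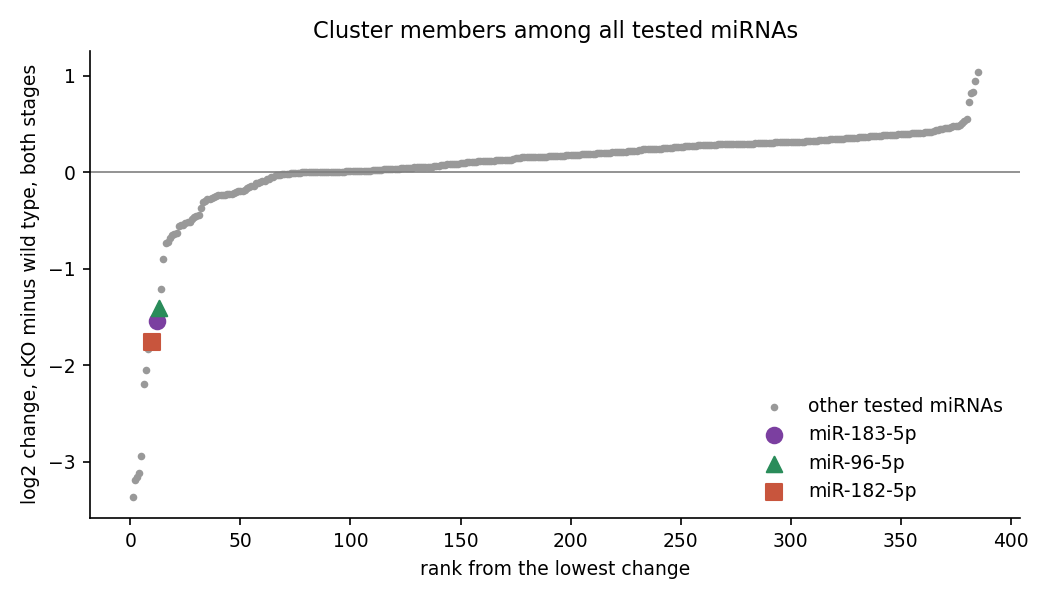
Fitted log2 change over both stages, cKO minus WT (vertical axis), of the 385 tested miRNAs in order of that change (horizontal axis, rank from the lowest), with the 3 members marked. miR-182-5p (rank 10, −1.76) and miR-96-5p (rank 13, −1.41) lie below the long flat part of the ranking, and the place of miR-183-5p is set by the floor.

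The miRNAs most like each member over the 8 arrays were found by Pearson's r of scaled log2 intensity. These arrays share 1 slide and fall into a WT and a cKO set, so r follows the genotype difference for the most part. For miR-182-5p they were miR-429-3p (r = 0.998), miR-200a-3p, miR-203-3p, miR-34a-5p and miR-200b-3p (each 0.997). For miR-96-5p they were miR-182-5p (0.996), miR-200a-3p (0.995), and miR-34a-5p, miR-429-3p and miR-200c-3p (each 0.993).

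For miR-183-5p all 4 cKO values were the same floor value, so its r rests on the 4 WT arrays and the step between genotypes, and no order of likeness is read from it. The highest values were those of miR-193b-3p (r = 0.996) and miR-20a-5p (0.993), miR-200a-3p (0.991), miR-429-3p (0.991) and miR-34a-5p (0.989). The changes were −0.52 ± 0.028 for miR-193b-3p and −0.56 ± 0.024 for miR-20a-5p (SE). The other likenesses of the members changed by −3.19 (miR-203-3p), −2.94 (miR-429-3p), −2.19 (miR-200a-3p), −1.77 (miR-200b-3p) and −1.72 (miR-34a-5p). All of these were called lower under all 6 scalings. Among the members themselves r was 0.996 (miR-182-5p with miR-96-5p), 0.986 (miR-182-5p with miR-183-5p) and 0.984 (miR-96-5p with miR-183-5p) over 8 arrays.

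Of the marker lists read, only skin epithelium had all of its miRNAs called lower under each of the 6 scalings, leaving miR-203-5p aside. miR-182-5p and miR-96-5p were also called lower under each of them. Each of the listed skin epithelium miRNAs other than miR-203-5p was called lower over both stages, beside 14.5% of all tested. The median change of the 8 on the list was −3.03, beside 0.17 for all tested. Their summed scaled intensity was 26.5 to 31.4 on the WT arrays and 2.61 to 4.03 on the cKO arrays. On the WT arrays 8 of the 8 were detected, and on the cKO arrays 5 to 7. miR-203-5p, detected on 4 arrays, all of them WT, entered the test through WT only. Its call is therefore left out where the list is set beside the 14.5%, but the median and the sum include it. The sum for 9 dermal mesenchyme miRNAs was 49.5 to 56.3 in WT and 64.7 to 70.6 in cKO, with 8 of 9 called higher beside 46% of all tested, but 0 of 9 were called higher under 3 of the 6 scalings, and 2 of 9 were called lower with control-probe scaling. Their part in the fall of the cluster was not tested.

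The cluster is also known from sensory neurons and Merkel cells, so markers of nerve were read too. Of 10 nerve and glia miRNAs, 4 were tested, with 0 called lower and 2 called higher, near the 46% of all tested that were called higher (median 0.12, beside 0.17). With control-probe scaling their median was −0.11, and 1 was called lower and 0 higher. With quantile scaling it was 0.096, and 1 was called lower and 2 higher. The summed intensity of the list was 0.767 to 0.911 in WT and 0.899 to 1.02 in cKO. Among the 4, miR-132-3p had a fitted change of 0 at both stages and could not be called, and the median includes it. By stage, 0 of 4 were called higher at E16.5, beside 35.8% of all tested, and 3 of 4 at E17.5, beside 36.1%. The neuronal miRNAs miR-124-3p, miR-9-5p, miR-9-3p, miR-137-3p, miR-138-5p and miR-129-5p were detected on 0 of 8 arrays. Of 4 neuroendocrine and Merkel cell miRNAs (miR-375-3p, miR-7a-5p, miR-7b-5p and miR-153-3p), 0 were detected on any array. Skeletal muscle miRNAs were called higher in 5 of 5 cases, beside 46% of all tested (8.50 to 9.55 in WT, 9.98 to 12.1 in cKO) but in 0 of 5 under 3 of the scalings. Endothelial miRNAs were called higher in 2 of 2 cases and blood miRNAs in 3 of 6, beside the same 46%, and in 0 of 2 and 0 of 6 under the same 3 scalings. With control-probe scaling 1 muscle and 1 blood miRNA were called lower.

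On the same chromosome, 3 other miRNAs of the array lay within 2 Mb of the cluster in the files' mm9 positions, all about 897 kb away: miR-29a-5p, miR-29a-3p and miR-29b-1-5p. Of these, miR-29a-3p, a miRNA of collagen-repressing activity, was the 1 tested. It changed by 0.22 ± 0.027 (SE; adjusted limma p 0.00189), while the members fell. Over the 6 scalings its change ran from −0.13 to 0.22, and it was called higher in 2 and lower in 0 of them.

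The opposite arms of the hairpins, miR-183-3p, miR-96-3p and miR-182-3p, have 8 probes on the array. None was detected on any array (0 of 8 arrays), so the arms that accompany the members stayed below detection in both genotypes.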

How the data were processed

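The authors hybridised Cy3-labelled RNA to single-colour Agilent mouse miRNA arrays and read them with Agilent Feature Extraction 11.5.1.1, per the file headers. The deposited scanner files hold background-subtracted fluorescence intensity in linear units, with no scaling between arrays. From these, outlier-marked spots (2.84% to 6.02% per array) were dropped and the remaining spots averaged per probe. Arrays were scaled to the 75th percentile of 474 commonly detected probes, floored (at each array's 5th percentile of detected probes, median of the 8) and turned to log2. A miRNA takes the value of its brightest probe.

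Group means were fitted with limma 3.58.1 in R 4.3.3 (eBayes with trend, residual df 4, prior df 1.08) over 385 miRNAs, with Benjamini-Hochberg adjustment within each contrast at 0.05. Differences between miRNAs within an array were tested by exact permutation, two-sided. The scripts were tested on simulated data. Sequences were read in Python 3.11.15, and figures drawn with matplotlib 3.10.9.

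Replicates are separate pools of embryos, and p-values measure the spread between pools. The number of arrays limits the precision. The 4 groups fill 4 columns of 1 slide, so slide position and group cannot be told apart. Dicer mRNA was not measured, and precursor hairpins also contain the sequence the probes pair with. The deposited value table equals the scanner intensity within 0.02 in 100% of spots above 0 and holds a constant of the array (2.90 to 5.12, also its median) for the 42.2% to 45.1% of spots at 0 or below. It is thus linear, uncentred and unscaled, and was used as an alternative.

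The members, the marker lists and the comparators were chosen with earlier results of these data known. Named by rule were the members, their other arms, miRNAs sharing bases 2 to 7 with them, those within 2 Mb, the 5 most correlated with each, and miR-200c-3p and miR-205-5p. Alternatives covered scaling, background, floor, filter, probe choice, outlier spots, moderation, the arrays in the fit, the replicate block and leaving out each array. The background alternative was normexp with an offset of 50 intensity units. Using the shorter probe of each member, and leaving out both second E16.5 arrays, were added after seeing the data.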

Additional observations from a re-analysis of the deposited data

Results flagged for a closer look

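The probes for the opposite arms were not part of any comparison, and 4 of the 8 read higher on every cKO array than on every WT array, which is why they are listed here. They were singled out after their values were seen, and the difference was not tested. Of the 3639 probes that were detected on no array, 1.95% (71 probes) had all cKO arrays above all WT arrays and 1.7% (62 probes) had all below, beside 50% (4 of 8) and 0% (0 of 8) for these arms. One miR-182-3p probe had a mean intensity of 6.89 in cKO (range 4.48 to 9.53) and −0.19 in WT (highest 0.34), and the other 0.079 in cKO and −2.15 in WT. One miR-96-3p probe had a mean of 6.35 in cKO (lowest 4.63) and 2.03 in WT (highest 2.74), and the other 3.06 in cKO and −0.037 in WT. The 4 miR-183-3p probes overlapped between genotypes. All of these intensities are small: the medians of the negative control spots were 2.21 to 4.59 per array, and 1 of 59 cKO spots of the brighter miR-182-3p probe was well above background. The 5p arms of the miR-182 and miR-96 hairpins were lower in cKO, and whether the 2 arms of a hairpin differ in direction was not tested.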

How the results depend on the processing

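The falls of miR-182-5p and miR-96-5p, at each stage and averaged, kept their direction and their calls under every alternative. Over both stages the changes ran from −2.16 to −0.78 for miR-182-5p and −1.80 to −0.77 for miR-96-5p. Those of miR-183-5p ran from −2.35 to −0.43 and kept their calls where a value was given. As its cKO arrays were at the floor as scaled here, its calls add no support. The smallest falls of miR-182-5p, miR-96-5p and miR-183-5p were those with normexp. Its added offset of 50 intensity units makes log2 changes of dim probes smaller by construction. Testing only miRNAs detected on all arrays gives miR-183-5p no value. Whether replicate numbers pair the arrays is not given by the labels. Same-numbered deviations correlated at −0.14 between the genotypes at E16.5 and at 0.12 to 0.28 in the 5 other pairs of groups, and replicate 2 had the fewer detected miRNAs in all 4 groups. With a replicate block the changes over both stages were −1.76, −1.41 and −1.54 (adjusted p 0.000652, 0.00134 and 3.3e-05 for miR-182-5p, miR-96-5p and miR-183-5p), and the block changed no member's call.

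The WT stage change of miR-183-5p was −0.057 after quantile and −0.070 after median scaling, and positive at 0.19 (all-probe percentile), 0.055 (control probes) and 0.42 (unscaled). It was −0.18 but not called with the floor divided by 4 (adjusted p 0.296), no filter (0.0545) or only the arrays compared (0.127), and −0.20 to −0.16 with 1 array left out. The stage difference of the cKO effect on miR-183-5p was 0.16 to 0.20 with arrays left out, and it was called in 2 of 24 alternatives. With normexp the cKO stage changes of miR-182-5p (−0.31) and miR-96-5p (−0.22) were called.

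The unequal change of miR-182-5p and miR-96-5p was −0.0087 (normexp), 0.091 (mean of all probes), 0.54 (shorter probes), −0.35 and not called with outlier spots kept or arrangements within stage, and −0.41 to −0.33 with arrays left out. For miR-182-5p and miR-183-5p it was called at −0.36 (all-probe scaling), −0.43 (no scaling), −0.36 (control probes) and −0.34 (normexp). For miR-96-5p and miR-183-5p it was −0.33 (normexp), 0.94 (the scanner's total gene signal), 0.56 (floor divided by 4) and −0.56 (shorter probes), each called. With outlier spots kept, the mean of all probes and arrangements within stage, in this order, the pairs with miR-200c-3p were 1.04, 1.87 and 1.60 (miR-182-5p) and 1.39, 1.78 and 1.95 (miR-96-5p), and those with miR-205-5p were 1.35, 1.83 and 1.35 (miR-182-5p) and 1.71, 1.74 and 1.71 (miR-96-5p), with adjusted p from 0.05 to 0.167. With arrays left out these 4 ran from 1.53 to 1.67, 1.89 to 2.02, 1.32 to 1.43 and 1.65 to 1.82. The cause of these shifts was not tested beyond the floor. Over all tested miRNAs the numbers called lower and higher were, with their range over alternatives in parentheses, 56 (40 to 166) and 177 (6 to 194) over both stages, at E16.5 58 (17 to 99) and 138 (4 to 169), at E17.5 39 (32 to 192) and 139 (3 to 154), for the stage difference 3 (0 to 36) and 3 (0 to 17), for stage in WT 41 (4 to 143) and 16 (0 to 188), and for stage in cKO 78 (5 to 140) and 59 (2 to 108).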
